A study of Mus musculus with 2 samples.

Results

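Iron handling and heme metabolism were examined over 37 named genes of hepcidin control, iron uptake, storage and export, heme synthesis, heme breakdown and transport, and globins. The genes were chosen by name, as known members of these pathways, with earlier results of these data known. The lists of related genes and markers used below were chosen in the same way. Their counts beside the background are therefore descriptions and not independent support. Of the 37, 35 had at least 1 probe set (a group of short oligonucleotides that match a transcript) annotated to that gene alone, among 18194 such genes on the array. Of these, 33 were measured, meaning a signal of 200 or more in at least 1 pool, as were 9160 genes in all. Trf and Ftl1 had no probe set of their own, and Flvcr1 and Hba-a1 stayed below 200.

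The samples were 1 pool of liver RNA from 3 FLS mice, the model of non-alcoholic steatohepatitis, and 1 pool from 3 DS mice, a strain from the same colony used as the model of simple steatosis. Both are inbred strains derived from different lines of the outbred ddN colony, and no engineered allele is named for either. All mice were 19 weeks old, received a standard pellet diet, and had their livers perfused with saline before removal. Each pool was hybridized to 1 Affymetrix mouse array with 45101 probe sets. Values are the deposited signal intensities on a linear scale, and ratios are FLS over DS.

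Each strain had a single array, so the differences are without replicate error and no test across strains could be made. As a yardstick, the log2 ratios of measured probe sets of the same gene had a pooled SD of 0.26 over 3209 genes, a technical spread that says nothing about the variation between mice. The median log2 ratio was 0.03 over all measured genes. Division by Actb (6891 in FLS livers against 7944 in DS livers) would shift every log2 ratio upward by 0.21, so that ratios between 0.867 and 1 would then pass 1. Markers of hepatocytes were bright in both livers, at 7838 to 32018 in FLS and 6995 to 30942 in DS over 12 measured genes, with ratios from 0.962 to 1.12.

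Body iron is governed by hepcidin, a peptide hormone that hepatocytes secrete and that makes cells degrade the iron exporter ferroportin. Hepatocytes adjust hepcidin transcription to iron stores through bone morphogenetic protein (BMP) receptors and SMAD factors, and to inflammation through interleukin-6 and STAT3. The liver also stores iron in ferritin and makes large amounts of heme, mostly for cytochromes P450, while its macrophages take up hemoglobin and old red cells and return their iron to the blood.

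Most members had similar signals in FLS and DS livers. Of the 33 measured members, 28 had ratios within 1.5-fold, as did 91.1% of all measured genes. At least 1.5-fold higher in FLS livers were 3 members (Slc48a1, Hfe and Hamp), against a background of 5.35% of all measured genes, and at least 1.5-fold lower were 2 (Alas2 and Cd163), against 3.54%. At 2-fold, 1 member was higher (Slc48a1, background 1.89%) and 1 was lower (Alas2, background 1.30%). Counts this small do not set the members apart from other genes. Their median log2 ratio was 0.02, close to the 0.03 of all measured genes. Over all measured genes, 173 were 2-fold or more higher and 119 were 2-fold or more lower, a split that became 269 and 92 after division by Actb. Just past the 1.5-fold limit were Cd163 with a ratio of 0.661 and Hamp with 1.66. Just short of it were Hamp2 with 1.48 and Steap4 with 0.723. Just inside the signal limit was Bmp6, with 211 in FLS livers against 271 in DS livers, and just outside it was Flvcr1, with 179 in FLS and 172 in DS.

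**Figure D1:**
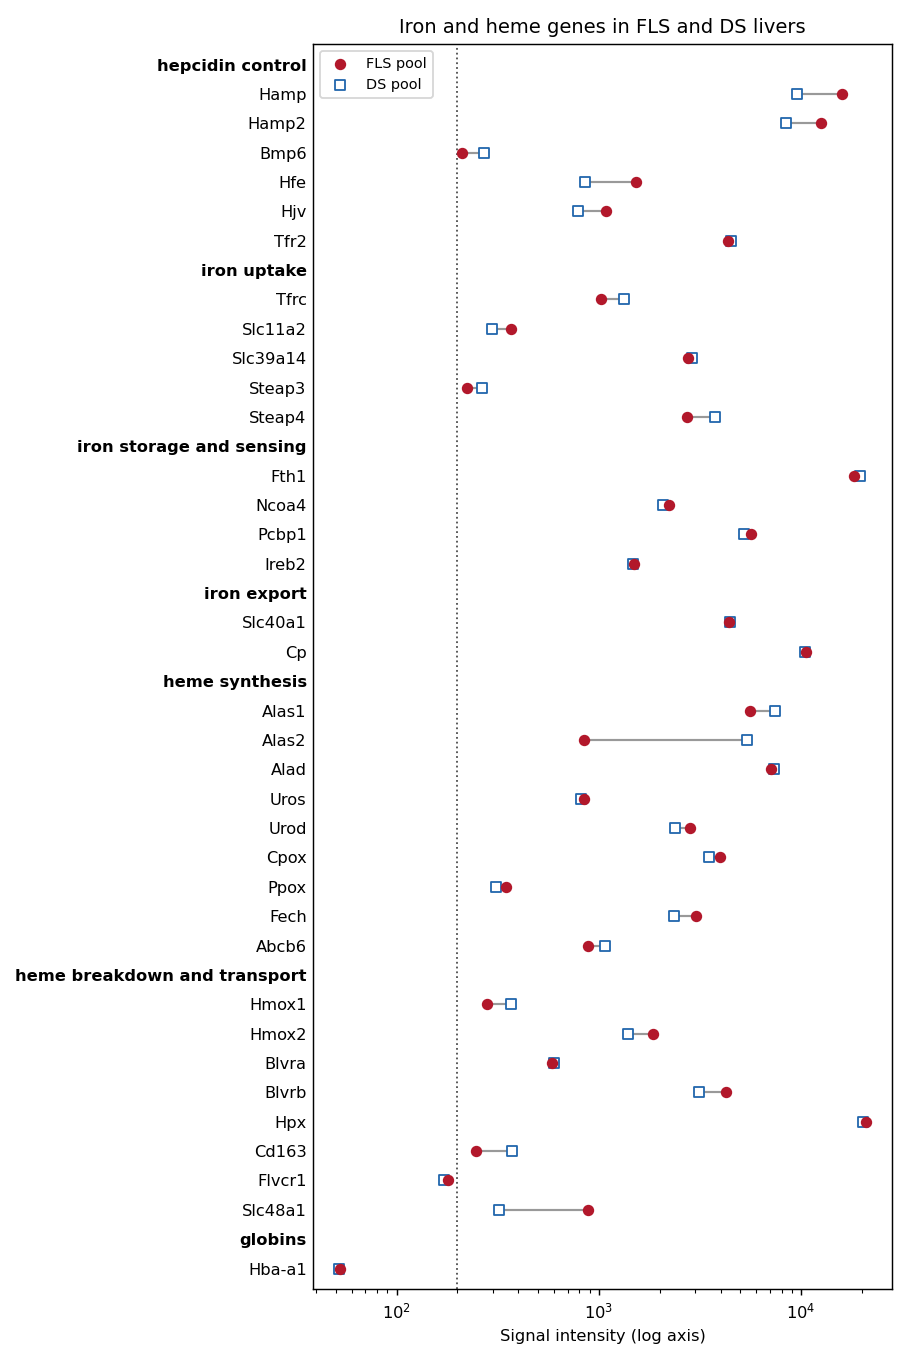
Signal intensity (log axis) of the 35 members with a probe set of their own in the FLS pool (filled circles) and the DS pool (open squares), 1 array each, grouped by role; the dotted line marks a signal of 200. Alas2, with 847 in FLS livers against 5423 in DS livers, has the widest gap, and Slc48a1, Hfe and Hamp have their FLS signal well to the right of their DS signal.

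In hepcidin control, Hamp and Hfe were higher in FLS livers by 1.5-fold or more (background 5.35%) and the other 4 genes stayed within 1.5-fold. Hamp, which encodes hepcidin, had a signal of 15898 in FLS livers against 9555 in DS livers, an FLS/DS ratio of 1.66. Its second probe set gave nearly the same picture, with 15307 in FLS livers against 9650 in DS livers, an FLS/DS ratio of 1.59. Hamp2, the second hepcidin gene of the mouse, had 12529 in FLS livers against 8442 in DS livers, an FLS/DS ratio of 1.48. That value and the 1.66 of Hamp come from probe sets of a kind that can bind related transcripts (suffix _x_at). The probe set of Hamp with a ratio of 1.59 is not of that kind. The other probe set of Hamp2 stayed at 93.8 in FLS livers against 109 in DS livers. The 2 genes are close copies, so their signals cannot be fully separated here.

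The promoters of both genes are shown because hepcidin is the hormone at the centre of the pathway and the windows differ in a known regulatory sequence. The windows run from 250 bases before to 50 bases after the transcription start in RefSeq (GRCm38.p6, minus strand), for Hamp at chr7:30943980-30944279 and for Hamp2 at chr7:30924132-30924431. Capitals mark matches on either strand to GGCGCC, the core of the BMP-responsive element, and to TTCNNNGAA, the pattern bound by STAT3; the 2 patterns do not overlap.
Hamp: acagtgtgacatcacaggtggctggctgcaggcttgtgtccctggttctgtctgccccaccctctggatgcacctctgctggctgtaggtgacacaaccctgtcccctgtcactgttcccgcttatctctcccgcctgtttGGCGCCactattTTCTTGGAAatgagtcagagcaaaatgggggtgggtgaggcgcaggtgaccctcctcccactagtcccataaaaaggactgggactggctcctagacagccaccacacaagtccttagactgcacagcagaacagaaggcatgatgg
Hamp2: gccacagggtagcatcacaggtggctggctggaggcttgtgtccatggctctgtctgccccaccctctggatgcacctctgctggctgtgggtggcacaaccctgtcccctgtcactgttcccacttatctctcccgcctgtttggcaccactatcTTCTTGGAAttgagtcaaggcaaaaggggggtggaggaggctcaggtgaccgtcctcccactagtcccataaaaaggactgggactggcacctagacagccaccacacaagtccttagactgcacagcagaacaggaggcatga

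Hamp holds GGCGCC at positions -109 to -104 from the start and TTCTTGGAA at -97 to -89. Hamp2 holds TTCTTGGAA at -94 to -86 and has no match to GGCGCC in this window. The letters of Hamp2 that align with the GGCGCC of Hamp are GGCACC, which differ at 1 base. Over 297 aligned bases the windows were 92.9% identical. Of 32851 promoter windows of 300 bases, 11.9% hold GGCGCC and 8.30% hold TTCNNNGAA, so neither match is rare. The sequences are those of the reference strain, and those of FLS and DS mice were not examined.

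Among the upstream members, Hfe, which encodes an MHC class I-like protein that is mutated in human hemochromatosis, had 1529 in FLS livers against 849 in DS livers, an FLS/DS ratio of 1.80. Its second probe set was below the signal limit in both pools, at 66.1 in FLS and 108 in DS. Hjv, listed as Hfe2 and encoding hemojuvelin, a BMP co-receptor on hepatocytes, had 1079 in FLS livers against 790 in DS livers, an FLS/DS ratio of 1.37. A second probe set of Hjv had 492 in FLS livers against 354 in DS livers, an FLS/DS ratio of 1.39. Tfr2, the transferrin receptor that takes part in iron sensing, had 4371 in FLS livers against 4498 in DS livers, an FLS/DS ratio of 0.972. Bmp6, the ligand that liver endothelial cells release when iron is high, had 211 in FLS livers against 271 in DS livers, an FLS/DS ratio of 0.782. Thus Hamp, Hamp2, Hfe and Hjv had ratios above 1 and Tfr2 and Bmp6 below. The log2 ratios of the 6 genes had a median of 0.51. As the signals of Hamp and Hamp2 cannot be fully separated, these genes may not be independent readings in that median. That median became 0.12, and the ratio of Hfe 1.05, when each gene was read as the median of its probe sets, dim ones included. As deposited and over 4 other scalings of the arrays, Hamp stayed between 1.64 and 1.92, Hfe between 1.75 and 2.08, Hjv between 1.32 and 1.57 and Bmp6 between 0.775 and 0.901, while Tfr2 passed 1 on division by Actb (1.12).

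Other genes of BMP-SMAD signalling were drawn from a list of 30 names, of which 24 were measured. Of these, 5 reached 1.5-fold higher in FLS livers (background 5.35%) and none was at least 1.5-fold lower (background 3.54%), and 19 of 24 had ratios above 1, against 5003 of all 9160 measured genes. The median log2 ratio over the list was 0.21, against 0.03 over all measured genes. The list mixes genes that act for the pathway with genes that act against it, such as the inhibitory Smad7 and Tmprss6. These counts and this median therefore give no direction of signalling. Gdf15 and Erfe, also on the list, had no probe set annotated to that gene alone and are not counted. The paper lists Gdf15 among the genes with a higher array signal in FLS livers. The widest difference was in Id1, a direct SMAD target that rises with hepatocyte BMP signalling, with 1408 in FLS livers against 247 in DS livers, an FLS/DS ratio of 5.71. Ranked from the highest ratio, Id1 stood at place 19 of the 9160 measured genes. Id3, another SMAD target of the same family, had 1474 in FLS livers against 548 in DS livers, an FLS/DS ratio of 2.69.

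Smad7, the inhibitory SMAD that the pathway induces, had 388 in FLS livers against 221 in DS livers, an FLS/DS ratio of 1.75. That probe set is of the _x_at kind. The other probe set of Smad7 had 285 in FLS livers against 199.9 in DS livers, a ratio of 1.43 that is a lower bound. Fgl1, a protein secreted by hepatocytes, had 3174 in FLS livers against 1621 in DS livers, an FLS/DS ratio of 1.96. The remaining gene past 1.5-fold was Smad1, a receptor-activated SMAD, with 610 in FLS livers against 385 in DS livers, an FLS/DS ratio of 1.58 on one probe set and 1.75 on another measured one. The ligands did not share this pattern. Bmp2 had a ratio of 1.10, Bmp5 of 1.23 and Gdf2, listed as Bmp9, of 1.23, whereas Bmp4 had 0.791 and Bmp7 0.781, an upper bound with a signal of 162 in the FLS pool. Tmprss6, the protease that cleaves hemojuvelin and lowers hepcidin, had 6001 in FLS livers against 4852 in DS livers, an FLS/DS ratio of 1.24. Smad1, the ligands and Tmprss6 were chosen for mention with their values known.

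In the inflammatory arm of hepcidin control, none of the 9 measured genes reached 1.5-fold higher (background 5.35%) or lower (background 3.54%), which at this number of genes is near the background, and the median log2 ratio was 0.04. Il6ra, a subunit of the interleukin-6 receptor, had a ratio of 1.28, Stat3 of 1.28, Creb3l3 of 1.11 and Il6st, the signalling subunit of that receptor, of 1.10. Il6 itself, looked up after the other values were seen, was below the signal limit, at 54.1 in FLS livers against 56.7 in DS livers. Markers of liver endothelial cells, which supply BMP ligands, had 9 measured genes with a median log2 ratio of -0.04. None of them reached 1.5-fold higher (background 5.35%) or lower (background 3.54%), which is near the background for 9 genes. Summed over all 11 of these markers on the array, signals were 8098 in FLS livers against 7890 in DS livers.

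**Figure D2:**
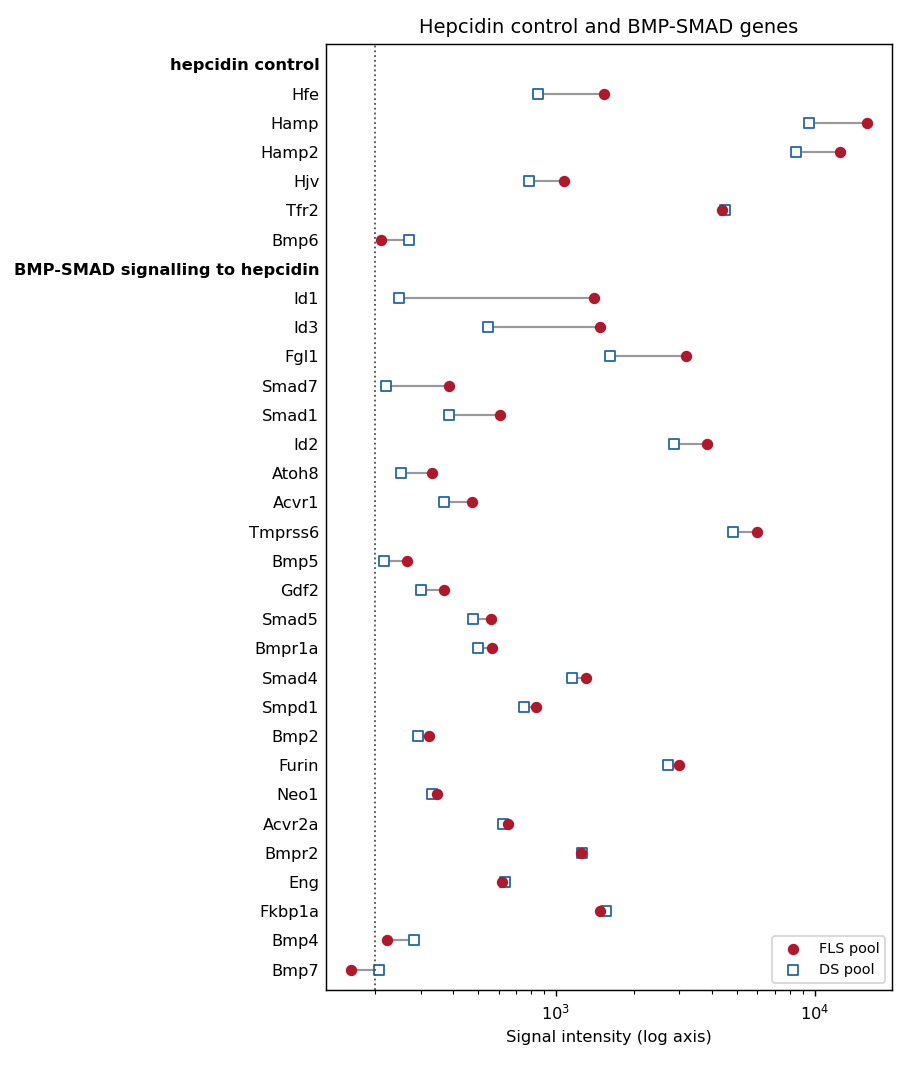
Signal intensity (log axis) of the 6 hepcidin control genes and 24 measured BMP-SMAD genes in the FLS pool (filled circles) and the DS pool (open squares), ordered by ratio within each list; the dotted line marks a signal of 200. Id1 and Id3 show the widest gaps, with ratios of 5.71 and 2.69, while Bmp4, Bmp6 and Bmp7 have their FLS signal to the left of their DS signal.

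None of the 5 measured members of iron uptake reached 1.5-fold higher (background 5.35%) or lower (background 3.54%), which is near the background for 5 genes. Of the 5, 4 had ratios below 1, against 4157 of all 9160 measured genes, with a median log2 ratio of -0.25. Tfrc, the transferrin receptor that brings transferrin-bound iron into cells and whose mRNA is degraded when iron is plentiful, had 1027 in FLS livers against 1338 in DS livers, an FLS/DS ratio of 0.768. Its other 5 probe sets were below the signal limit. Steap4, a ferrireductase of hepatocytes and fat cells, had 2714 in FLS livers against 3755 in DS livers, an FLS/DS ratio of 0.723. A second, dimmer probe set of Steap4 had 323 in FLS livers against 566 in DS livers, an FLS/DS ratio of 0.570. Both genes were thus lower in FLS livers by less than the 1.5-fold limit on their brightest probe set, and they kept this direction under every scaling that was tried.

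Steap3, the ferrireductase of the transferrin cycle, had 223 in FLS livers against 265 in DS livers, an FLS/DS ratio of 0.843. Slc11a2, which encodes the iron importer DMT1, had 367 in FLS livers against 296 in DS livers, an FLS/DS ratio of 1.24, but another measured probe set had a ratio of 0.970. Slc39a14, the importer of iron that is not bound to transferrin, had 2755 in FLS livers against 2886 in DS livers, an FLS/DS ratio of 0.954. Transferrin itself could be read only from a probe set annotated to both Trf and Srprb, with 24538 in FLS livers against 23429 in DS livers, an FLS/DS ratio of 1.05, which cannot be given to either gene alone.

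Iron storage, sensing and export were closest to equal between the strains. Fth1, the heavy chain of ferritin, had 18330 in FLS livers against 19510 in DS livers, an FLS/DS ratio of 0.939, and 0.979 on its second probe set. For the ferritin light chain, 3 probe sets annotated to Ftl1 together with other genes had ratios from 0.976 to 1.03. Ncoa4, the receptor that delivers ferritin to lysosomes, had 2229 in FLS livers against 2074 in DS livers, an FLS/DS ratio of 1.07, although its second probe set had 0.834. Pcbp1, an iron chaperone for ferritin, had 5658 in FLS livers against 5236 in DS livers, an FLS/DS ratio of 1.08. Ireb2, an iron regulatory protein, had 1485 in FLS livers against 1472 in DS livers, an FLS/DS ratio of 1.01. The 4 measured genes of storage and sensing had a median log2 ratio of 0.06, close to that of all measured genes. Slc40a1, which encodes ferroportin, had 4387 in FLS livers against 4455 in DS livers, an FLS/DS ratio of 0.985, and 0.808 on its second probe set. Cp, which encodes the ferroxidase ceruloplasmin, had 10565 in FLS livers against 10434 in DS livers, an FLS/DS ratio of 1.01, and ratios from 0.899 to 1.06 on 4 other measured probe sets. Ferritin and ferroportin are also controlled by translation and protein breakdown, which these arrays do not show.

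In the lists of other iron genes, single members stood out. Of 12 measured genes of iron transport, 1 was higher (background 5.35%) and 1 lower (background 3.54%) by 1.5-fold or more, with a median log2 ratio of 0.12. The higher one was Lcn2, the binding protein of iron-carrying siderophores, with a ratio of 4.34. The lower one was Scara5, a receptor for ferritin, with 125 in FLS livers against 405 in DS livers, so that its ratio of 0.308 is an upper bound. Slc25a28, a mitochondrial iron importer, had a ratio of 1.40 and Slc39a4, chiefly a zinc importer, of 1.37. Of 12 measured genes of iron storage and its regulation, 2 were at least 1.5-fold higher (background 5.35%), none was lower to that extent (background 3.54%), and 11 had ratios above 1, against 5003 of all 9160 measured genes, with a median log2 ratio of 0.25. The higher ones were Pcbp4, with a ratio of 1.85, and Nfe2l2, the oxidative stress factor NRF2 that also controls ferritin and heme oxygenase genes, with 1479 in FLS livers against 906 in DS livers and a ratio of 1.63. Gclc, a target of NRF2 in glutathione synthesis, had a ratio of 1.49 and Bach1, the heme-sensing repressor of Hmox1, of 1.27.

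In heme synthesis, Alas2 was the member that differed most. The other 8 enzymes and transporters stayed within 1.5-fold, as did 91.1% of all measured genes. Alas2, the erythroid form of 5-aminolevulinate synthase, which starts heme synthesis in red cell precursors, had 847 in FLS livers against 5423 in DS livers. Its ratio was 0.156, or 6.40-fold lower in FLS livers, at place 15 of 9160 measured genes when ranked from the lowest. Alas2 has 1 probe set. As deposited and over 4 other scalings of the arrays, its ratio lay between 0.154 and 0.180.

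Hba-a1, an alpha globin gene, was below the signal limit on its own probe set, at 52.7 in FLS livers against 52.1 in DS livers. Globin transcripts were bright on probe sets that are annotated to several globin genes and so fall outside the gene values. On the 3 probe sets shared by Hba-a1 and Hba-a2, signals were 687, 1059 and 1156 in the FLS pool and 3704, 5595 and 6385 in the DS pool. Their ratios were 0.185, 0.189 and 0.181. On the 1 probe set shared by 4 beta globin genes, the signal was 721 in FLS livers against 4540 in DS livers, an FLS/DS ratio of 0.159. All 4 globin probe sets were thus 5.28-fold to 6.30-fold lower in FLS livers, near the 6.40-fold of Alas2. These probe sets were looked up after the values of the members had been seen. Of 8 other globins with a probe set of their own, 2 were measured, Mb (myoglobin) with a ratio of 1.03 and Ngb (neuroglobin) with an upper bound of 0.936.

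Other erythroid markers were dim in both pools. Of 12 on the array, 3 were measured: Klf1, an erythroid regulator, had a ratio of 0.965, Ank1 of 0.943 and Sptb, a spectrin of the red cell membrane, of 0.902. The defining membrane gene Slc4a1 (band 3) was below the limit at 103 in FLS livers against 117 in DS livers, and Gata1, an erythroid transcription factor, was at 80.8 in FLS and 94.6 in DS, both picked out after their values were seen. Summed over the 12 markers, signals were 1766 in FLS livers against 1923 in DS livers. Alas2 and globin mRNA are also carried by reticulocytes, the youngest red cells in blood. The part that blood left in the livers had in these differences was not tested. In such bulk RNA, fewer cells of a type and less RNA per cell cannot be told apart.

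**Figure D3:**
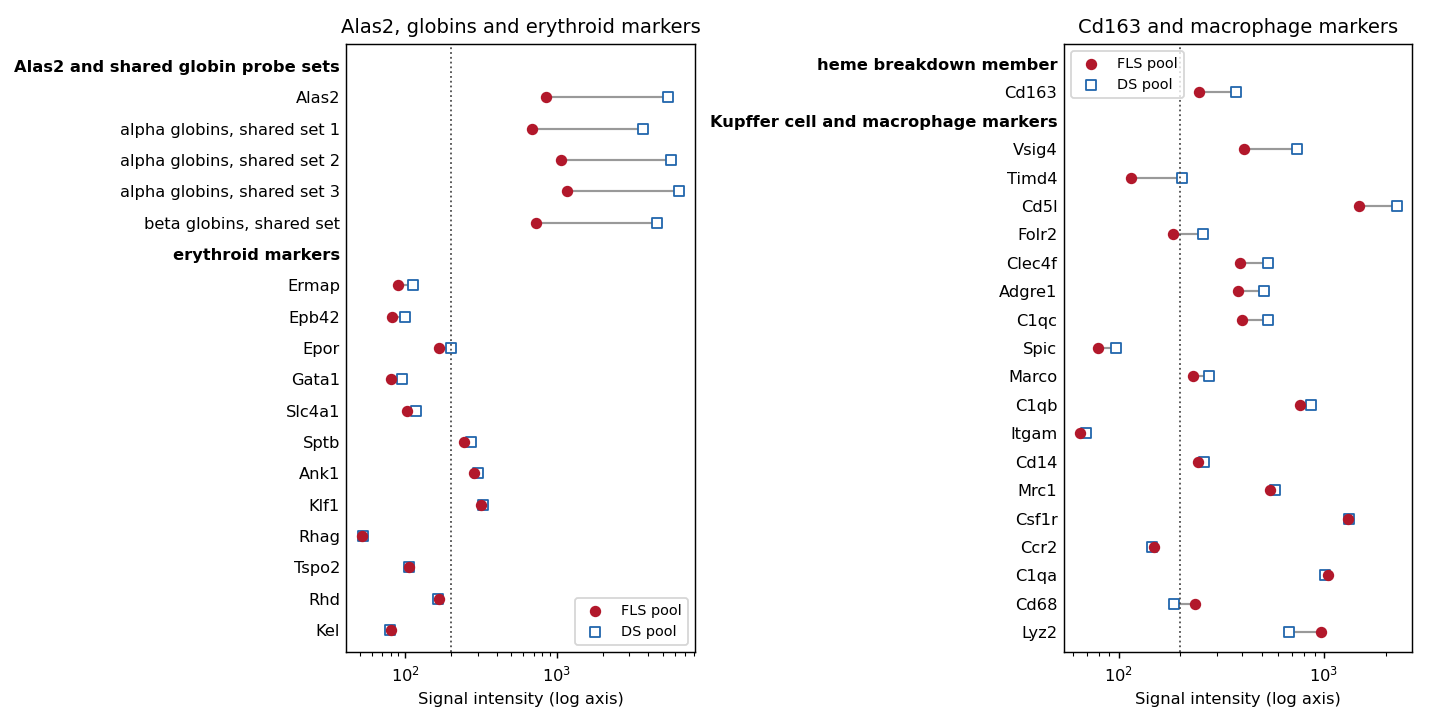
Signal intensity (log axes) in the FLS pool (filled circles) and the DS pool (open squares) of Alas2, the shared globin probe sets and 12 erythroid markers (left), and of Cd163 and 18 markers of Kupffer cells and macrophages (right); the dotted lines mark a signal of 200. Alas2 and the 4 globin probe sets have similarly wide gaps with ratios from 0.156 to 0.189, while the erythroid markers below them lie close together near or below 200.

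Alas1, the form of the same enzyme that sets the rate of heme synthesis in hepatocytes, had 5557 in FLS livers against 7419 in DS livers, an FLS/DS ratio of 0.749. Its dimmer second probe set had a ratio of 0.720. Alad, which acts next, had 7130 in FLS livers against 7302 in DS livers, an FLS/DS ratio of 0.977, although a dimmer probe set had 1.36. The enzymes of the later steps had ratios above 1, although Uros reached only 0.989 under the lowest of the scalings. Uros had 841 in FLS livers against 815 in DS livers (1.03), and Urod had 2821 in FLS livers against 2389 in DS livers (1.18), with 0.977 on a second probe set. Cpox had 3992 in FLS livers against 3503 in DS livers (1.14), and Ppox had 346 in FLS livers against 309 in DS livers (1.12). Fech, the ferrochelatase that inserts the iron, had 3023 in FLS livers against 2343 in DS livers (1.29), and 1.12 on each of 2 other measured probe sets. Abcb6, a porphyrin transporter, had 885 in FLS livers against 1077 in DS livers, an FLS/DS ratio of 0.822. Over the 9 genes the log2 ratio had a median of 0.05.

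Further genes of heme synthesis and transport included 4 of 15 at least 1.5-fold higher in FLS livers (background 5.35%) and none lower to that extent (background 3.54%). Ratios were below 1 for 10 of the 15, against 4157 of 9160 over all measured genes, and the median log2 ratio was -0.04. Clpx, a mitochondrial unfoldase that acts on 5-aminolevulinate synthases, had 2930 in FLS livers against 1352 in DS livers, an FLS/DS ratio of 2.17. Nr1d1, a nuclear receptor of the circadian clock that binds heme, had a ratio of 2.10, and Flvcr2, a relative of Flvcr1, of 1.95. Ppargc1a, a coactivator that induces Alas1 in fasting, had 219 in FLS livers against 112 in DS livers, an FLS/DS ratio of 1.95 that is a lower bound.

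In heme breakdown and transport, 5 of 7 measured members stayed within 1.5-fold, against 91.1% of all measured genes. Slc48a1 and Cd163 lay outside in opposite directions. Slc48a1, which encodes the heme transporter HRG1 that moves heme out of the phagolysosomes of macrophages, had 886 in FLS livers against 321 in DS livers, an FLS/DS ratio of 2.76. Its other probe set pointed the other way, with 401 in FLS livers against 485 in DS livers, an FLS/DS ratio of 0.827. The direction of Slc48a1 therefore rests on which probe set is read, and the median over both gave 1.51. Cd163, the hemoglobin-haptoglobin receptor of macrophages, had 247 in FLS livers against 373 in DS livers, an FLS/DS ratio of 0.661 or 1.51-fold lower. It fell short of 1.5-fold when ratios were centred on the median of all probe sets, with an offset of 50, and on division by Actb (0.762).

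Of 15 measured markers of Kupffer cells and other macrophages, 3 were 1.5-fold or more lower (background 3.54%). The other 12 stayed within 1.5-fold, as did 91.1% of all measured genes. Ratios were below 1 for 12 of the 15, against 4157 of all 9160 measured genes, and the log2 ratios had a median of -0.26. Summed over all 18 markers, signals were 9010 in FLS livers against 10522 in DS livers. Vsig4, a complement receptor of resident Kupffer cells, had a ratio of 0.554, Cd5l of 0.657 and Timd4 of 0.570, an upper bound with 115 in the FLS pool. Lyz2, a lysozyme gene of monocytes and macrophages, had 1.43, in the other direction. Among markers chosen for mention with their values known, Clec4f had 0.730, Adgre1 0.744, C1qc 0.751 and C1qb 0.884. Csf1r had 0.993, C1qa 1.04 and Cd68 a lower bound of 1.26. The measured markers not named here had ratios below 1. The share of these cells in the ratio of Cd163 was not tested.

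As deposited, neither heme oxygenase nor biliverdin reductase genes reached 1.5-fold. After division by Actb, Hmox2 had a ratio of 1.52 and Blvrb of 1.58. Hmox1, the inducible enzyme that opens the heme ring, had 281 in FLS livers against 367 in DS livers, an FLS/DS ratio of 0.766. Hmox2, the constitutive enzyme, had 1843 in FLS livers against 1400 in DS livers, an FLS/DS ratio of 1.32. Of the biliverdin reductases, which turn biliverdin into bilirubin, Blvrb had 4270 in FLS livers against 3109 in DS livers, an FLS/DS ratio of 1.37. Blvra had 585 in FLS livers against 600 in DS livers, an FLS/DS ratio of 0.976, which is within the spread between probe sets of a gene. Hpx, the plasma protein hemopexin that binds free heme, had 20941 in FLS livers against 20133 in DS livers, an FLS/DS ratio of 1.04. Flvcr1, a heme exporter, was below the limit in both pools. Hp, which encodes haptoglobin, the carrier of free hemoglobin, had a ratio of 1.00 and was picked out after its value was seen. It was 1 of 6 measured genes of hemoglobin and heme scavenging. None of the 6 reached 1.5-fold higher (background 5.35%) or lower (background 3.54%), which at this number of genes is near the background. In that list Lrp1, the hemopexin receptor, had 1.23.

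Agreement between probe sets gives a further view of these ratios. Of 16 members with more than 1 measured probe set, 10 had all of them on the same side of a ratio of 1. The widest disagreement was that of Slc48a1. For Hamp, Hjv, Alas1, Steap4, Cpox and Fech the measured probe sets had the same direction, and for Alas2, Cd163, Hmox1, Hmox2 and Blvrb there was only 1 probe set. Hfe had only 1 that was measured.

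**Figure D4:**
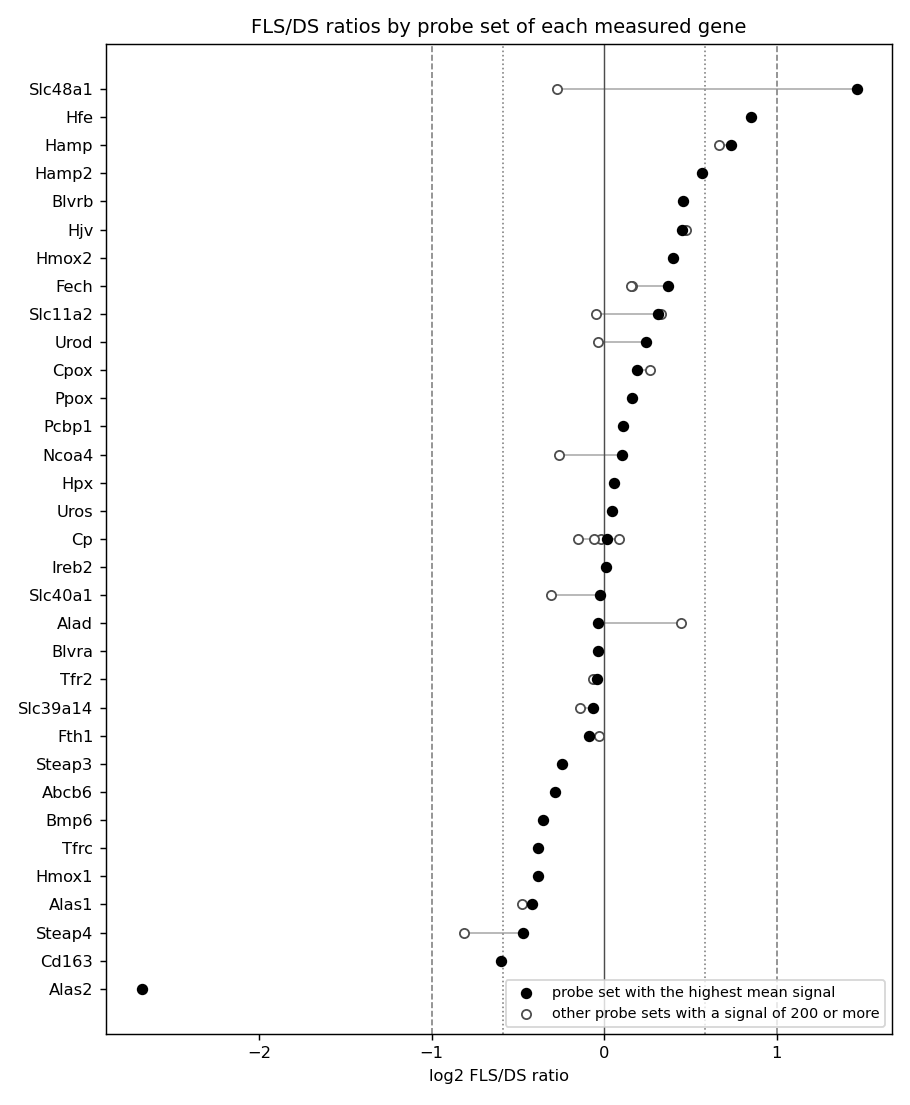
The log2 FLS/DS ratio of every probe set with a signal of 200 or more in at least 1 pool, for the 33 measured members ordered by ratio; filled circles mark the probe set that was brightest on average, open circles the others, and vertical lines a ratio of 1 (solid), 1.5-fold (dotted) and 2-fold (dashed). Alas2 lies far to the left at a log2 ratio of -2.68, and the 2 probe sets of Slc48a1 lie on opposite sides of 0.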

How the data were processed

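Total liver RNA was pooled per strain and hybridized to Affymetrix mouse genome arrays, 1 per strain. The authors summarized and normalized the signal intensities with the MBEI (PM-only) algorithm, which models perfect-match probes, and deposited them on a linear scale. The software affy is named in the submitters' processing notes with no version. The scaling of one array to the other is not stated in the methods or notes read here. No further scaling was applied. Signals spanned 38.2 to 32018 (FLS) and 36.6 to 30942 (DS). Having only 2 arrays limits the precision.

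Of 45101 probe sets, 34958 carried 1 gene symbol, 932 several and 9211 none. Symbols were updated through Entrez gene numbers for 34754 probe sets. Where a gene had several probe sets, the brightest by mean of both pools was used. Ratios are FLS over DS, bounds where 1 signal was below 200, and not given where both were. Named are all 37 members, up to 4 measured genes with the largest absolute log2 ratio in each of 10 lists of related genes and 4 lists of markers, and Actb, while other genes were picked after their values were seen. The members and lists were chosen with earlier results of these data known. Promoter sequences are from RefSeq (GRCm38.p6), and no coordinates of probe sets were used. The alternatives were quantile normalization, median centring, removal of a loess trend (fraction 0.4), division by Actb, an offset of 50, the median over probe sets, omission of names ending in _x_at or _s_at, and other signal limits. The calculations were checked on simulated ratios. Calculations ran in Python 3.11.15 with pandas 2.3.3, numpy 2.4.6 and statsmodels 0.14.6, and plots were drawn with matplotlib 3.10.9.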

Additional observations from a re-analysis of the deposited data

How the results depend on the processing

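Without replicates, the limit for a change was 0.26 in log2 units for ratios and medians, the SD between probe sets of a gene, and 1.5 times for counts. Of 230 values of the 33 measured members under another scaling, an offset or another choice of probe set, 225 stayed within that limit, 5 moved and 0 reversed a difference of 1.5-fold or more. Many of the 225 could not have moved. Division by Actb shifts every log2 ratio by 0.21 and median centring by less, both under the limit. Members with 1 probe set keep their value under another choice of probe set. The tally is therefore no measure of robustness. The median over all probe sets, dim ones included, moved Hamp2 to 1.13, Hfe to 1.05, Tfrc to 0.937 and Slc48a1 to 1.51, and Urod moved to 0.977 without names ending in _x_at or _s_at. That omission gave no ratio for Hamp2.

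The median over all probe sets left 0 members at least 2-fold higher, and took the median log2 ratio of hepcidin control to 0.12. Division by Actb gave 7 members at least 1.5-fold higher, of which 2 reached 2-fold, and 1 member 1.5-fold lower. The number at least 1.5-fold lower was also 1 after median centring, with the offset of 50 and at a signal limit of 500, where 27 members remained measured and the median log2 ratio of heme breakdown and transport was 0.40. With probe sets of several gene names allowed, a setting chosen after the data were seen, 2 members were at least 2-fold lower, as Hba-a1 joined Alas2. Over all measured genes, division by Actb took the median log2 ratio to 0.24.

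No paired analysis was possible because each strain had 1 pool. Leaving out a replicate could not be run for the same reason. Without replicates, ratios inside the spread between probe sets of a gene cannot be told from equal signals.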

Other observations

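Genes of iron-sulfur cluster assembly, the mitochondrial and cytosolic machinery that builds iron-sulfur cofactors, differed little between FLS and DS livers. Of 18 measured genes, 1 was at least 1.5-fold higher in FLS livers (background 5.35%, the share of all measured genes) and none was lower to that extent (background 3.54%), and 12 had ratios below 1, against 4157 of all 9160 measured genes, with a median log2 ratio of -0.04. Fdx1, a ferredoxin, had 4602 in FLS livers against 6613 in DS livers, an FLS/DS ratio of 0.696. Glrx5, which carries the clusters onward, had a ratio of 0.798 and Nubp2 of 0.831, although the other probe set of Nubp2 had 0.984. Iba57 had 334 in FLS livers against 150 in DS livers, so that its ratio of 2.22 is a lower bound. After division by Actb, the median of this list was 0.16.

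Of 12 measured genes of ferroptosis and iron-dependent lipid peroxidation, 2 lay 1.5-fold or more lower in FLS livers (background 3.54%) and none higher to that extent (background 5.35%), with a median log2 ratio of -0.08, or 0.12 after division by Actb. Chac1, a glutathione-degrading enzyme induced by stress, had 210 in FLS livers against 737 in DS livers, an FLS/DS ratio of 0.285. Acsl4, which places polyunsaturated fatty acids into membrane lipids, had 819 in FLS livers against 1270.4 in DS livers, an FLS/DS ratio of 0.645. Slc3a2, a subunit of the cystine importer, had a ratio of 1.30 and Aifm2, a ubiquinone reductase that limits lipid peroxidation, of 0.772. The other measured probe sets of Aifm2 had ratios of 0.982 and 1.11, so its direction rests on the probe set read. In the clearance of bilirubin, the end product of heme breakdown, 1 of 8 measured genes was at least 1.5-fold higher (background 5.35%). It was Abcc3, a basolateral exporter of conjugates, with 4819 in FLS livers against 2249 in DS livers, an FLS/DS ratio of 2.14. The glutathione transferases Gsta2 and Gsta4 had ratios of 1.32 and 1.31, and Slco1a1, an uptake carrier of organic anions, had 0.862.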
